A study of Arabidopsis thaliana with 34 samples.

Results

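Translation in the cytosol of Arabidopsis thaliana depends on the small (40S) ribosomal subunit, and the expression of 60 nuclear genes for its proteins was followed here in lines that lack large syntenic blocks of the genome. The 60 genes were taken from the 27538 genes of the deposited tables by locus name. They fall into 24 families, of which 13 have 2 listed copies, 10 have 3 and 1 has 4. The S24 pair is not among the 60 genes, since pAP142 lacks 1 of its copies (AT5G28060). Family shares below are shares of the listed copies alone.

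RNA-seq was done on 34 samples in 2 experiments. The time-of-day experiment holds 19 samples of pooled seedlings grown on plates: Col-0 in the evening (t1, n = 4) and the morning (t2, n = 3), T4 pAP141 line 25.12.63 (t1, n = 4, and t2, n = 2) and T4 pAP142 line 22.4.15 (t1, n = 3, and t2, n = 3). The pAP146 experiment holds 15 samples: leaves of Col-0 (n = 4), of sibling controls of T3 pAP146 line 17.11 (n = 4) and of its heterozygous plants (n = 3), and seedlings homozygous for the deletion (n = 4). Each deletion was made with SaCas9 under an egg cell-specific promoter and a pair of flanking guides, and each is represented by 1 line. By the study's genome sequencing the pAP142 lines carried more variants relative to Col-0 than the other lines did. Homozygous pAP146 plants were delayed in development and were collected as seedlings, whereas their comparison groups were collected as leaves, so that genotype and organ cannot be told apart there. The labels do not say whether replicates came from separate sowings, so p-values measure the spread between these samples. In bulk tissue, fewer cells of a type and less RNA per cell cannot be told apart.

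The labels were checked with the genes that each line lacks. In Col-0 t1 the S24 gene AT5G28060 had 681 ± 38.5 TPM (SD, n = 4), and pAP142 t1 had 0.115 ± 0.0999 TPM (SD, n = 3). TET3 (AT3G45600) had no count in the 6 pAP141 samples, and JAZ11 (AT3G43440) had none in the 4 homozygous pAP146 samples and 4.07 ± 0.226 TPM (SD, n = 3) in heterozygous plants, against 7.66 ± 1.24 TPM (SD, n = 4) in siblings. No library went against the deletion genotype in its label. These genes cannot check the time point, nor tell sibling from Col-0 leaves. Estimated counts summed to between 26640541 and 43851997 per library.

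The 40S subunit carries the decoding centre of the ribosome, and each of its proteins is present in 1 copy per subunit. In plants nearly every one of these proteins is encoded by several nuclear genes, most of them kept after duplications of the genome, and the copies encode nearly the same protein. Their messages are abundant where cells divide and grow, their transcription is associated with telo-box and site II elements near the start site, and their translation is controlled by the TOR kinase. Mutants in single copies, among them RPS5A (AT3G11940), RPS13A (AT4G00100) and the S18 gene PFL (AT1G22780), are known for defects in the embryo or for pointed first leaves.

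The sequences that follow belong to the S23, S8, S9 and S15 pairs, on which the results turn. In yeast and mammals S23 forms part of the decoding centre, S9 lines the channel where mRNA enters, S15 lies near the decoding centre, and S8 stands on the body of the subunit. The first 60 coding bases of the S23, S9 and S8 pairs are given with the differing bases in capitals.
S23, AT5G02960: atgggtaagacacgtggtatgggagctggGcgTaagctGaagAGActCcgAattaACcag
S23, AT3G09680: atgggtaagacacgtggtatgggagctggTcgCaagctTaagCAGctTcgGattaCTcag
S9, AT5G15200: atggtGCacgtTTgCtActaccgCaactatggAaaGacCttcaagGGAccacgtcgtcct
S9, AT5G39850: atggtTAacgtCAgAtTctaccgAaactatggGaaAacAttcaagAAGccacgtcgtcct
S8, AT5G20290: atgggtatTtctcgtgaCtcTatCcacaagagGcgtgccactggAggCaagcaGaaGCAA
S8, AT5G59240: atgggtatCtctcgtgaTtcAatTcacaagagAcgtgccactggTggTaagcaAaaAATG
The S23 copies differed at 10 of these 60 bases, the S9 copies at 13 and the S8 copies at 12. Over the whole coding sequence the S23 copies were 90.0% identical, the S9 copies 80.4% and the S8 copies 74.9%. A run of 31 bases found in no other coding sequence started at 86.7% of the positions in each S23 copy and at 100% of those in both S8 and both S9 copies. By sequence the copies of these pairs can thus largely be told apart. How reads were assigned between them was not checked. This matters most for AT3G09680, whose level is low beside that of its partner. The S15 copies were 89.3% identical, with 96.0% of such positions in AT1G04270 and 86.2% in AT5G09510.

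The 120 bases before the annotated start of each gene follow, on the strand of the gene and from the RefSeq annotation of TAIR10.1, with telo-boxes (AAACCCTAA) and site II elements (TGGGCC or TGGGCT) on either strand in capitals. The S15 pair is shown because its copies shifted with the time of day.
S23, AT5G02960, chr5:694516-694635, minus strand: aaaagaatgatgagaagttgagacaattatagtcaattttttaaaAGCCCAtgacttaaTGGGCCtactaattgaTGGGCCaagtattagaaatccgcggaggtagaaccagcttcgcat
S23, AT3G09680, chr3:2970372-2970491, minus strand: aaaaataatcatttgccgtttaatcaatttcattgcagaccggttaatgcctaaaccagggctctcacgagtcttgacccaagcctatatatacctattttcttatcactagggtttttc
S8, AT5G20290, chr5:6853107-6853226, minus strand: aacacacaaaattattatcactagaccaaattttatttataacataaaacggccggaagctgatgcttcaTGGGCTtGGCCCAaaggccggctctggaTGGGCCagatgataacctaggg
S8, AT5G59240, chr5:23903768-23903887, minus strand: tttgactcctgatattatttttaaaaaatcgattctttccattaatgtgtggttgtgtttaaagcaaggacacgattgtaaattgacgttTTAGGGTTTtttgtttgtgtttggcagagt
S9, AT5G15200, chr5:4936430-4936549, minus strand: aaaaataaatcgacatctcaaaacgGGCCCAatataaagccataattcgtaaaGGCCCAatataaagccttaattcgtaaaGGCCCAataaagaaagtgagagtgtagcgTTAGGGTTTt
S9, AT5G39850, chr5:15949790-15949909, plus strand: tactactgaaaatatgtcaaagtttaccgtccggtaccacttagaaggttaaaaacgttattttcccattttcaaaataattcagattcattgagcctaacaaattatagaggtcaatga
S15, AT1G04270, chr1:1143131-1143250, minus strand: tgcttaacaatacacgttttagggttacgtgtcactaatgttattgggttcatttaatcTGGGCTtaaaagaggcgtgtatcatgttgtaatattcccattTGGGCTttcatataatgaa
S15, AT5G09510, chr5:2956684-2956803, minus strand: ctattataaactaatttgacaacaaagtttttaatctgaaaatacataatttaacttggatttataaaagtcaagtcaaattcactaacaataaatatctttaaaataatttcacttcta
In each of these pairs the copy with the higher level held site II elements in this window and the other held none, although AT5G59240, like AT5G15200, held a telo-box. The pairs were picked from the results, and not every family is alike. In the Sa pair neither copy held a site II element within 250 bases, although AT1G72370 gave 97.9% of the family. Over 250 bases before the start, AT3G09680 held 1 TGGGCC and 1 TGGGCT, and AT5G39850 and AT5G09510 held none of the 3 motifs. Among all 60 genes, 38 (63.3%) had a site II element within 250 bases, against 19.2% of 27443 annotated genes, and 7 (11.7%) had a telo-box, against 2.61%. For 20 of the 60 (33.3%) neither motif was found, against 79.0% of all genes. A match is a run of letters in this window and not a site known to be bound.

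For other families the copies are harder to separate. Unique runs of 31 bases made up 24.4% of the S17 gene AT2G05220 and 30.8% of AT2G04390, 46.5% and 47.7% of the S16 pair, and 53.6% and 54.3% of the S26 genes AT2G40590 and AT2G40510, and the S16 copies were 98.2% identical. The S17 gene AT5G04800 had 72.0%. The split of counts within S16, and between these copies of S17 and of S26, is therefore uncertain. The median over the 60 genes was 98.85%, and all 60 passed the filter on low counts in each fit. Of the 60, 57 had at least 100 counts in every sample.

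The 60 genes summed to 1.51% of all TPM in Col-0 leaves and to 2.97% in pAP142 t1. The 5 genes with the highest mean over 34 samples were AT4G39200 (S25, 1281 TPM), AT5G18380 (S16, 966 TPM), AT5G02960 (S23, 919 TPM), AT5G20290 (S8, 905 TPM) and AT5G27700 (S21, 891 TPM). The lowest were AT3G09680 (S23, 3.37 TPM) and AT5G59240 (S8, 3.61 TPM), each the partner of a gene among the highest 5. Summed over the listed copies, the families were closer to each other than the genes were. Their means lay between 367 TPM (S2) and 1900 TPM (S25), and 20 of the 24 families lay between 616 and 1155 TPM. These sums are not whole family totals. In Col-0 seedlings AT5G62300 (S20) had 543 to 683 TPM and AT1G58380 (S2) had 35.4 to 46.9 TPM, and neither is among the 60. The lower value of 616 TPM, that of S20, thus leaves AT5G62300 out. Where a family held several genes, 6 of them gave under 5% of its TPM over the 34 samples: AT3G04770 (Sa, 2.08%), AT5G59240 (S8, 0.387%), AT5G39850 (S9, 2.03%), AT4G30800 (S11, 2.95%), AT5G15520 (S19, 3.81%) and AT3G09680 (S23, 0.294%). In S18 and S10, by contrast, no copy dominated, with the largest S18 copy, AT4G09800, at 39.0 ± 0.225% (SD, n = 7) of its family in Col-0 seedlings.

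**Figure D1:**
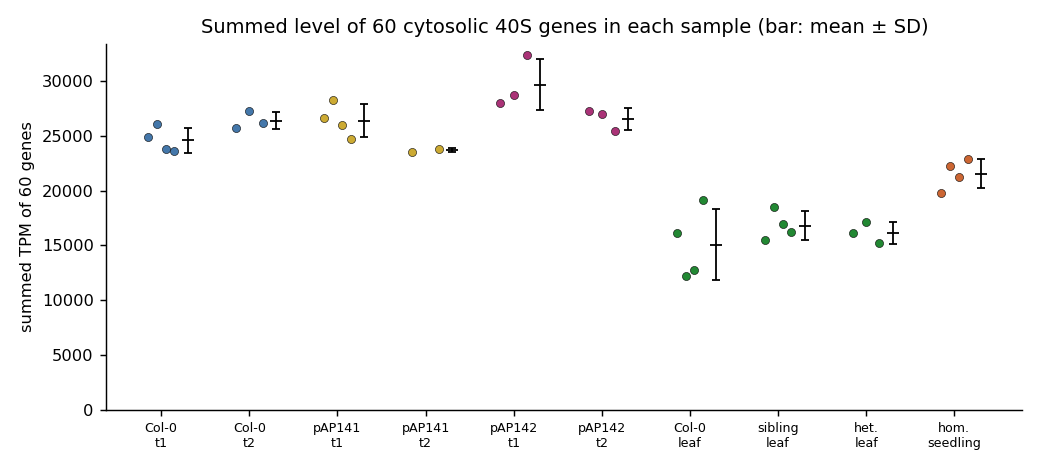
Summed TPM of the 60 genes (vertical axis, from 0) in each of the 34 samples by group, where points are samples and bars the mean ± SD. The pAP142 t1 samples (27980, 28682 and 32341) lay above the Col-0 t1 samples (23617 to 26046), and the leaf samples (12185 to 19137) lay below every seedling sample.

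The first comparison asked whether expression differed in pAP142 from that in Col-0. The pAP142 deletion removes a 40S gene of the S24 family together with the other genes of its block. By the study's account the plants were smaller and pale green, with serrated leaves. The loss of the S24 gene, that of the other genes and the altered growth cannot be told apart here. In the evening 28 of the 60 genes rose in pAP142 and none fell, with a median log2 fold change over the 60 of 0.31, while 9.39% of the 21356 genes tested rose and the median over all of them was -0.03. In edgeR 8.94% of all genes fell. DESeq2 called 38 of the 60 up and none down, against 2387 and 2161 of the 21356 genes, and with all 34 samples in 1 fit edgeR called 13. All 60 genes had a log2 fold change above 0 on both TMM and TPM scaling. For 52 of them the TPM values in pAP142 t1 lay wholly above those in Col-0 t1. The share of all genes that separated in this way was not counted, so the 52 are a description only. The 3 pAP142 t1 samples summed to 27980, 28682 and 32341 TPM over the 60 genes, and the 4 Col-0 t1 samples to 24870, 26046, 23770 and 23617 TPM. The groups did not overlap (ratio of means 1.21, exact permutation test, 2-sided, p = 0.0286, the smallest that 3 against 4 samples allow). Replicate 3 of pAP142 t1 stood highest, and without it 5 of the 60 were called, against 14 to 20 when another sample was left out (16, 14 and 16 without Col-0 t1 replicate 2, 3 and 4, and 16 without pAP142 t1 replicate 1).

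**Figure D2:**
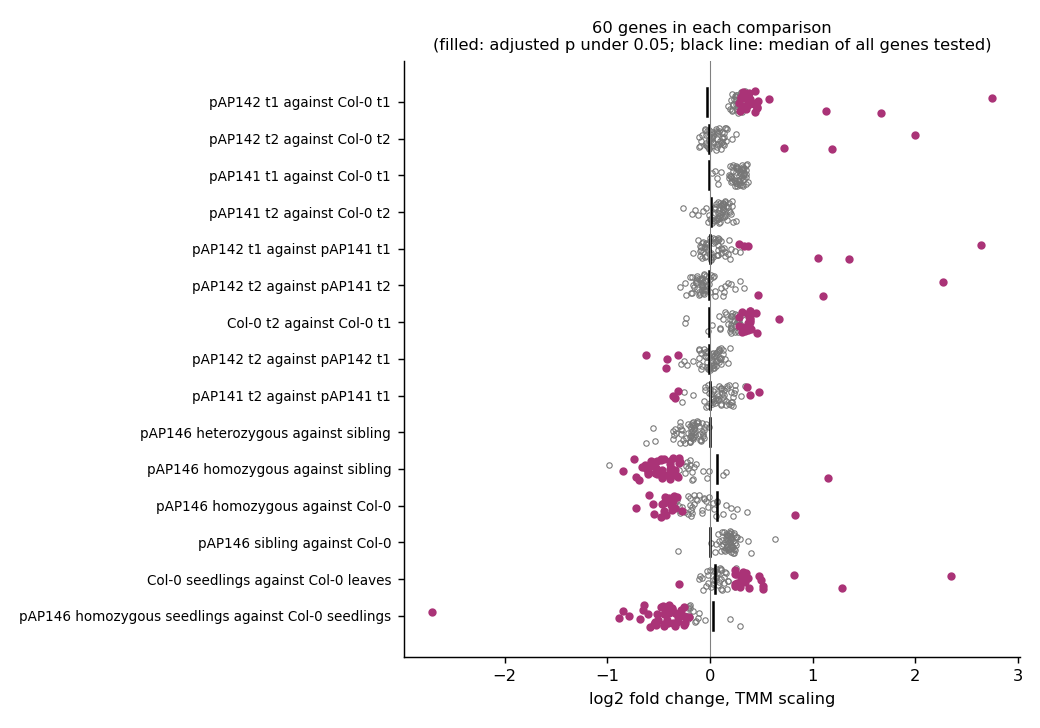
Log2 fold change on TMM scaling (horizontal axis) of the 60 genes in 15 comparisons (rows), where filled points passed an adjusted p under 0.05 and a black line marks the median of all genes tested. In pAP142 t1 against Col-0 t1 all points lie right of 0, and 3 genes, at 1.13, 1.67 and 2.75, stand apart.

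The largest changes belonged to minor copies of their families. AT3G09680, an S23 gene on chromosome 3 (TAIR10.1, 2969045 to 2970371), stood at 14.8, 13.9 and 21.2 TPM in pAP142 t1 and at 2.46, 2.38, 2.81 and 2.35 TPM in Col-0 t1. It rose 6.73-fold (log2 fold change 2.75, SE 0.20, adjusted p = 1.19e-07). In the morning it stood at 11.5, 8.60 and 8.28 TPM in pAP142 and at 2.33, 2.87 and 1.99 TPM in Col-0 (log2 fold change 2.0, SE 0.22, adjusted p = 3.26e-05). Every pAP142 sample was thus above every Col-0 seedling sample, on 129 to 388 estimated counts against 32 to 57. The 6 pAP141 samples lay between 1.55 and 2.87 TPM, within or just below the range of Col-0.

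AT5G59240, an S8 gene (chromosome 5, 23902462 to 23903767), stood at 7.02, 8.64 and 9.16 TPM in pAP142 t1 and at 2.76, 2.90, 2.26 and 2.65 TPM in Col-0 t1, a 3.18-fold rise (log2 1.67, SE 0.16, adjusted p = 2.95e-06). In the morning it stood at 7.40, 7.59 and 6.45 TPM against 3.08, 3.97 and 2.56 TPM in Col-0 (log2 1.19, SE 0.17, adjusted p = 0.000494). AT5G39850, an S9 gene (chromosome 5, 15949910 to 15951475), stood at 41.8, 40.7 and 51.9 TPM in pAP142 t1 and at 19.1, 20.4, 20.5 and 23.6 TPM in Col-0 t1, a 2.19-fold rise (log2 1.13, SE 0.10, adjusted p = 9.85e-07). Its morning values were 30.8, 29.5 and 27.6 TPM in pAP142 and 18.7, 19.6 and 16.2 TPM in Col-0 (log2 0.72, SE 0.11, adjusted p = 0.000548). For both genes the pAP142 samples lay above all Col-0 samples of the same time of day.

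These 3 genes were the only ones of the 60 to pass the test in pAP142 against Col-0 in the morning (3 up, none down). That is 5% of the 60, near the 5.07% of all genes tested that rose. DESeq2 called 3 of the 60 up as well, against 6.89% of all genes. Leaving out any 1 of the 6 morning samples left 3 called. Their partners with the high level had smaller fold changes. In the evening AT5G02960 (S23) rose by 0.34 on the log2 scale (SE 0.11, adjusted p = 0.0477), while AT5G15200 (S9, 0.29, adjusted p = 0.0630) and AT5G20290 (S8, 0.22, adjusted p = 0.159) did not pass the test. In the morning the 3 values were 0.11 (adjusted p = 0.649), -0.04 (adjusted p = 0.870) and -0.03 (adjusted p = 0.918). The minor copies remained minor: AT3G09680 gave 0.244 ± 0.0288% (SD, n = 4) of S23 TPM in Col-0 t1 and 1.27 ± 0.210% (SD, n = 3) in pAP142 t1, AT5G59240 went from 0.254 ± 0.0210% to 0.695 ± 0.0662% of S8, and AT5G39850 from 2.53 ± 0.315% to 4.41 ± 0.299% of S9.

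**Figure D3:**
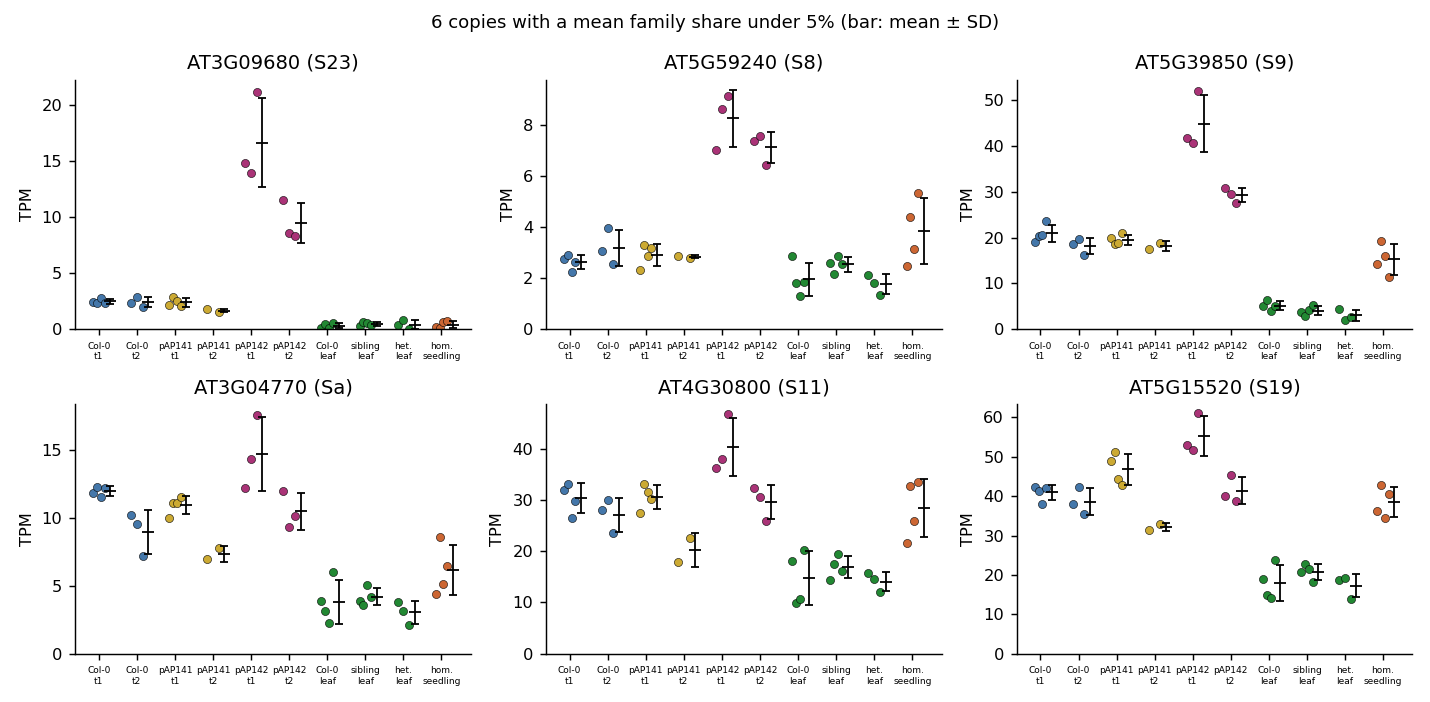
TPM (vertical axes, from 0) of the 6 copies with a mean family share under 5%, in each sample by group, where bars are the mean ± SD. AT3G09680, AT5G59240 and AT5G39850 were higher in all pAP142 samples than in the Col-0 samples of the same time of day, and AT3G09680 was at or below 0.828 TPM in all pAP146 experiment samples.

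Among the other genes that rose in pAP142 in the evening, the changes were small and of similar size. AT3G10610, an S17 gene, had the largest of these, from 118, 126, 107 and 109 TPM in Col-0 to 152, 159 and 198 TPM (log2 0.58, SE 0.10, adjusted p = 0.000818). AT4G30800 (S11) rose by 0.43 on the log2 scale (SE 0.10, adjusted p = 0.00640), AT5G09510 (S15) by 0.46 (SE 0.11, adjusted p = 0.00663), AT3G52580 (S14) by 0.47 (SE 0.11, adjusted p = 0.00862) and AT5G58420 (S4) by 0.44 (SE 0.11, adjusted p = 0.00868). The minor copies AT5G15520 (S19, 0.45) and AT3G04770 (Sa, 0.33) rose too. In yeast S19 is needed for maturation of the small subunit RNA. Both listed copies rose in 5 families, S2, S5, S6, S15 and S23. S6 is the 40S protein that S6 kinase phosphorylates downstream of TOR, and its genes AT4G31700 (RPS6) and AT5G10360 (EMB3010) had log2 fold changes of 0.37 (adjusted p = 0.0235) and 0.31 (adjusted p = 0.0420). The S5 genes AT2G37270 (RPS5B) and AT3G11940 (RPS5A) had 0.37 and 0.39. In 6 families, S10, S16, S18, S20, S21 and S26, no listed copy passed the test. Their log2 fold changes were positive as well, and the 32 genes of the 60 that were not called had values between 0.17 and 0.34.

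pAP141 keeps both S24 genes and serves as a second deletion line grown beside pAP142. In the evening its 60 genes had a median log2 fold change of 0.27 against Col-0, and 54 of them were above 0 on TPM scaling. In edgeR none was called, as was no gene of the whole table in that direction (0%), although 50 of the 60 had an unadjusted p under 0.05, all with higher values in pAP141. Of all 21356 genes, 4811 had such a p, 2000 of them with higher values in pAP141. DESeq2 called 24 of the 60 up, against 1.77% of all genes. The summed TPM was 26579, 28284, 25943 and 24690 in pAP141 t1 and overlapped that of Col-0 t1 (ratio 1.07, exact permutation test, 2-sided, p = 0.143, smallest possible 0.0286). Without pAP141 t1 replicate 3, edgeR called 8. In the morning none was called in either tool, while 0.0421% of all genes rose in edgeR and 1.55% in DESeq2. In edgeR 1 of the 60 had an unadjusted p under 0.05, against 3563 of the 21356 genes. The median there was 0.10 on TMM scaling, whereas on TPM scaling all 60 were lower in pAP141 (median -0.17, with -0.20 over all genes).

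Compared directly, pAP142 exceeded pAP141 in the evening for 6 of the 60 genes, against 14.1% of all genes tested, and in the morning for 3, against 7.12%. None of the 60 fell at either time, against 14.3% and 8.85% of all genes in edgeR and 16.1% and 10.7% in DESeq2. In edgeR 8 of the 60 in the evening and 5 in the morning had an unadjusted p under 0.05, none with a lower value in pAP142. Of all 21356 genes, 8681 and 6581 had such a p. The 3 minor copies of S23, S8 and S9 were called at both times, with log2 fold changes of 2.64, 1.35 and 1.05 in the evening and 2.27, 1.1 and 0.47 in the morning. The other 3 in the evening were RPS5A (0.37, adjusted p = 0.0127), AT3G10610 (0.33, adjusted p = 0.0208) and AT3G04770 (0.28, adjusted p = 0.0402). The median over the 60 was 0.04 in the evening and -0.06 in the morning on TMM scaling. On TPM scaling, where all genes had medians of 0.14 and 0.17, the 60 genes had medians of 0.19 and 0.18. RPS5A stood at 344, 450, 449 and 413 TPM in pAP141 t1 and at 501, 608 and 672 TPM in pAP142 t1. It gave 63.9 ± 3.41% (SD, n = 4) of S5 TPM in pAP141 t1 and 68.8 ± 1.5% (SD, n = 3) in pAP142 t1, and the highest pAP141 share (67.2%) lay next to the lowest of pAP142 (67.3%). Without pAP142 t1 replicate 3 the evening count was 3, and without pAP141 t2 replicate 2, with a lone pAP141 sample assumed to vary like the other groups, the morning count was 7.

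The difference between evening and morning in the response of each line was tested as an interaction. For pAP142 none of the 60 was called in edgeR, against 0.211% of all genes in either direction. The median was -0.26, and 12 of the 60 had an unadjusted p under 0.05, all toward a smaller response in the morning. Of all 21356 genes, 2234 had such a p, 1311 of them with a value above 0. DESeq2 called 1, AT3G10610 (log2 -0.66, adjusted p = 0.00589), against 248 of all genes. For pAP141 none was called in either tool, against 0% of all genes in edgeR and 12 genes in DESeq2. In edgeR 2 of the 60 had an unadjusted p under 0.05 there, against 1410 of all genes.

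The next comparison asked what the time of day did in each line. In Col-0, 23 of the 60 genes were higher in the morning than in the evening and none was lower, against 14% of all genes that rose and 16.6% that fell. DESeq2 called 31 of the 60 up and none down, against 15.7% and 16.9% of all genes. The Col-0 t1 samples are the baseline here and in the evening comparisons above, so these are not independent. AT3G10610 (S17) had the smallest p, with 160, 168 and 156 TPM in the morning against 107 to 126 TPM in the evening (log2 0.68, SE 0.10, adjusted p = 3.84e-05). AT5G16130 (S7, log2 0.40), RPS13A (0.37), AT5G35530 (S3, 0.34), AT3G04840 (S3a, 0.39), RPS5A (0.39), AT2G04390 (S17, 0.45) and AT3G53870 (S3, 0.38) followed. Without Col-0 t2 replicate 3, 7 were called, and 15 without Col-0 t2 replicate 2 or Col-0 t1 replicate 4, while the other leave-one-out counts ran from 16 to 26. On TPM scaling the 60 genes had a median log2 ratio of 0.08 and all genes -0.20, so that the TMM values are read relative to a genome-wide shift. In pAP142 the median from evening to morning was 0.02 on TMM scaling, with 32 genes above 0, and -0.17 on TPM scaling, with none above 0, where the median over all genes was -0.19. None rose, against 13.1% of all genes, and 4 fell, against 13.9%: AT3G04770 (Sa, -0.31), AT3G57490 (S2, -0.42), AT5G39850 (S9, -0.43) and AT3G09680 (S23, -0.63), each the smaller of the 2 listed copies of its family. Without pAP142 t1 replicate 3, or pAP142 t2 replicate 2, 1 of the 60 was called, and 2 without pAP142 t2 replicate 3. With all 34 samples in 1 fit none was called. In pAP141, 3 rose, against 17.9% of all genes, and 3 fell, against 16.7%. Those that rose were AT3G10610 (S17, 0.48), AT3G53870 (S3, 0.39) and AT2G05220 (S17, 0.36), and those that fell were AT3G04770 (-0.32), AT3G57490 (-0.36) and AT4G30800 (S11, -0.34). The median was 0.10 on TMM and -0.18 on TPM scaling, with -0.23 over all genes on the latter. Without pAP141 t2 replicate 2, 15 of the 60 were called, and 3 without replicate 1, each from a lone morning sample assumed to vary like the other groups. With all 34 samples in 1 fit, 3 were called. Replicate 1 had a lower sum of meristem markers (15.5 TPM) than replicate 2 (47.0 TPM), and its part in the result was not tested.

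In 13 of the 24 families the balance between copies shifted with the time of day in the same direction in Col-0, pAP142 and pAP141. For 21 of the 60 genes, all in these families, the share of the family's TPM in the morning samples lay wholly above or wholly below that in the evening samples in each line, all in 1 direction. This count is a description without a test, and copies of 1 family count as opposite sides of 1 shift. For plain TPM, by contrast, 2 of the 60 genes had values that did not overlap between the times in all 3 lines in 1 direction, against 25.7% of all genes tested. In S15 the copy AT5G09510 stood at 29.5 ± 1.06% (SD, n = 4) of its family in the evening and at 25.5 ± 0.742% (SD, n = 3) in the morning in Col-0. It stood at 29.9 ± 1.19% (SD, n = 3) and 24.7 ± 1.58% (SD, n = 3) in pAP142, and at 28.5 ± 1.11% (SD, n = 4) and 24.4 ± 0.272% (SD, n = 2) in pAP141. The partner AT1G04270 (RPS15) supplied the rest: its level was 745, 757, 700 and 697 TPM in the evening and 799, 853 and 847 TPM in the morning in Col-0, whereas AT5G09510 had 298, 313, 290 and 314 TPM and then 280, 297 and 277 TPM.

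Other families moved likewise. The S26 gene AT3G56340 went from 48.8 to 52.8% of its family in Col-0, from 49.5 to 52.4% in pAP142 and from 46.5 to 51.8% in pAP141. The S17 gene AT5G04800 went from 23.6 to 20.7%, from 23.2 to 20.9% and from 23.7 to 20.2%. The S18 gene AT1G34030 went from 28.8 to 26.2%, from 29.7 to 26.5% and from 28.6 to 26.3%, and the S2 gene AT3G57490 fell by 2.27, 2.19 and 2.05 percentage points. In S2 the major copy AT2G41840 rose in Col-0 in the morning (log2 0.29, adjusted p = 0.0402) while AT3G57490 had -0.24 (adjusted p = 0.143), and in S9 AT5G15200 rose (0.37, adjusted p = 0.0121) while AT5G39850 had -0.02 (adjusted p = 0.919).

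Seedlings were then set against leaves. Col-0 seedlings of the time-of-day experiment (n = 7, evening and morning together) were compared with Col-0 leaves of the pAP146 experiment (n = 4). They differ in organ, in growth and in experiment, and may differ in time of day, which cannot be told apart. The labels give no time of day for the pAP146 samples. The summed TPM was 25343 ± 1321 (SD, n = 7) in seedlings and 15052 ± 3243 (SD, n = 4) in leaves (ratio 1.68, exact permutation test, 2-sided, p = 0.00303, the smallest possible), with no overlap. The rest of the genome differed in the same direction on this scaling: the median log2 TPM ratio was 0.77 over the 60 genes and 0.60 over all genes. On TMM scaling 22 of the 60 rose, against 33.1% of all genes, and 1 fell, against 31%, and the median was 0.14. The share of the 60 that rose was near that of the genome. Without leaf replicate 2 or 3 the calls came to 11 or 12. The 3 largest differences among the 60 were those of the minor copies of S23, S9 and Sa. AT5G39850 (S9) stood at 16.2 to 23.6 TPM in Col-0 seedlings and at 5.07, 6.35, 3.97 and 5.03 TPM in Col-0 leaves (log2 1.29, SE 0.17, adjusted p = 1.17e-07). AT3G09680 (S23) stood at 1.99 to 2.87 TPM in seedlings and at 0.115, 0.467, 0.110 and 0.539 TPM in leaves, on 2 to 10 counts (log2 2.35, SE 0.46, adjusted p = 6.53e-05). AT3G04770 (Sa, log2 0.82, adjusted p = 0.000298), AT3G57490 (S2, 0.50, adjusted p = 0.00149), AT5G15520 (S19, 0.51, adjusted p = 0.000764), AT5G58420 (S4, 0.52), AT5G35530 (S3, 0.38) and AT3G10610 (S17, 0.48) rose as well. The gene that fell was AT5G09510 of S15 (-0.30, adjusted p = 0.0216), the copy whose share was lower in the morning, and AT5G59240 (S8) had -0.07 (adjusted p = 0.763).

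The share of the largest copy was compared between Col-0 seedlings and leaves in the 5 families where it moved most. The families were picked by that difference in the same samples, so these values are a description without a test. AT3G11510, the S14 gene, gave 47.5 ± 0.945% of its family in seedlings (SD, n = 7) and 54.9 ± 1.41% in leaves (SD, n = 4). AT3G53870 (S3) gave 42.3 ± 0.973% and 48.1 ± 1.71%. AT3G56340 (S26) gave 50.5 ± 2.48% and 56.5 ± 0.504%, and AT3G04840 (S3a) 50.8 ± 1.17% and 55.9 ± 2.78%. RPS15 (S15) moved the other way, with 72.2 ± 2.35% and 67.1 ± 2.63%. In other eukaryotes S14 and S26 stand at the channel where mRNA leaves the subunit, and S3 at the channel where it enters. In S14, S26 and S3 the ranges of seedlings and leaves did not overlap, and in S15 and S3a they did. In Col-0 the S26 and S3 shares were higher in the morning than in the evening and higher again in leaves, whereas the S15 share was higher in the morning and lower in leaves.

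**Figure D4:**
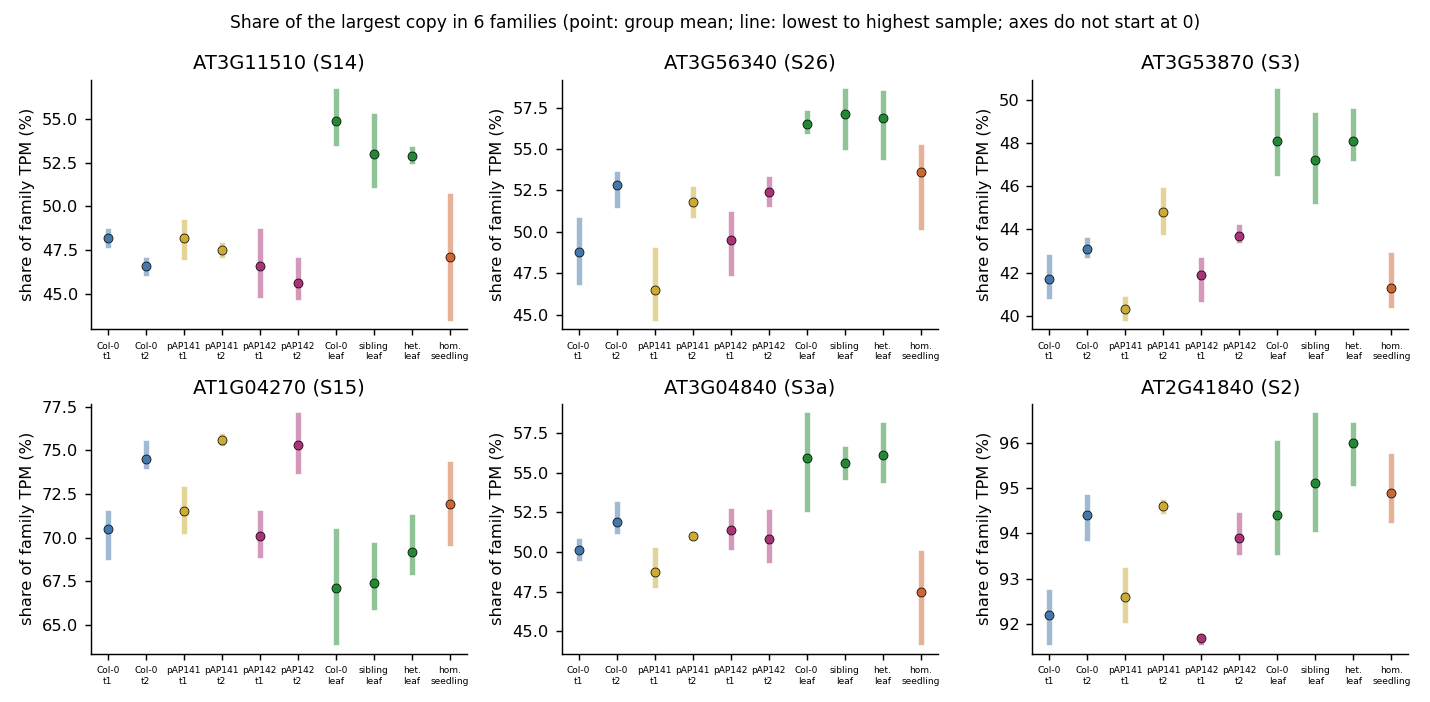
Share of family TPM (%, vertical axes not starting at 0) of the largest copy of S14, S26, S3, S15, S3a and S2 by group, where points are group means and lines run from the lowest to the highest sample. In S15 the share was higher at t2 than at t1 in each line and lowest in leaves, and in S14, S26, S3 and S3a the leaf groups stood above the seedling groups of the time-of-day experiment.

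In the pAP146 experiment none of the 60 genes was called between heterozygous and sibling leaves in edgeR or DESeq2. Of all 20833 genes, 0.0528% were called in edgeR and 39 genes in DESeq2. In edgeR 1 of the 60 had an unadjusted p under 0.05, against 980 of all genes. The summed TPM was 16092, 17121 and 15176 in heterozygous leaves and 15522, 18533, 16941 and 16184 in sibling leaves (exact permutation test, 2-sided, p = 0.514), with the groups overlapping. The median log2 fold change was -0.18 with all 60 below 0 on TMM scaling, and on TPM scaling it was -0.08 with 10 above 0. Sibling and Col-0 leaves gave no call among the 60 in either tool, and 0.0144% of all genes were called in edgeR. There 4 of the 60 had an unadjusted p under 0.05, against 400 of the 20833 genes.

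Homozygous seedlings differed from sibling leaves in most of the genes, in a direction that depends on the scaling. On TMM scaling 40 of the 60 fell and 1 rose, against 27.8% and 33.0% of all genes, with a median of -0.39. On TPM scaling 58 of them were higher in homozygous seedlings, with a median log2 ratio of 0.37, while the median over all genes was 0.70. The 60 genes therefore stood below the genome-wide shift by 0.33 on the log2 scale, although their summed TPM was 19807, 22227, 21229 and 22860 against 15522 to 18533 in siblings (ratio 1.28, exact permutation test, 2-sided, p = 0.0286, the smallest possible). On TMM-normalized CPM the sum was lower (log2 ratio -0.41). Every family held at least 1 copy that fell on TMM scaling, and 8 families had all listed copies fall. AT4G25740 (S10, log2 -0.85, adjusted p = 0.000125), AT1G34030 (S18, -0.74), AT3G56340 (S26, -0.61), AT1G48830 (S7, -0.48), AT5G61170 (S19, -0.70), AT3G53870 (S3, -0.52) and AT3G04840 (S3a, -0.64) were among those with the smallest p-values. The gene that rose was AT5G39850 of S9, on both scalings. It stood at 14.2, 19.3, 16 and 11.4 TPM in homozygous seedlings and at 3.79, 2.98, 4.26 and 5.24 TPM in siblings, without overlap (log2 1.15, SE 0.24, adjusted p = 0.000927). Its partner AT5G15200 had -0.42 on TMM scaling (adjusted p = 0.0123).

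**Figure D5:**
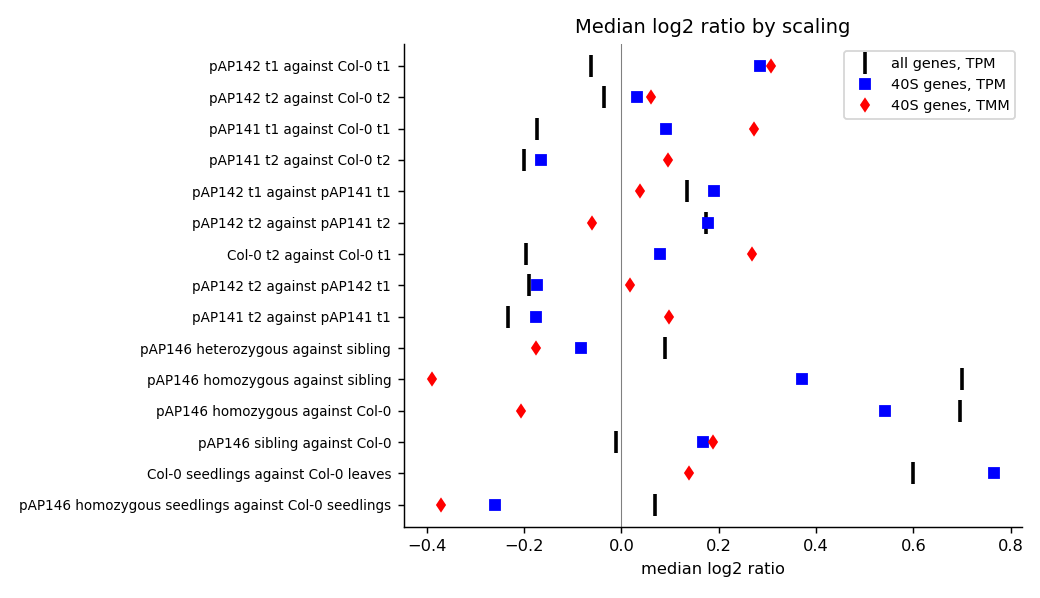
Median log2 ratio (horizontal axis) in 15 comparisons (rows): black lines are all genes on TPM scaling, squares the 60 genes on TPM scaling and diamonds the 60 genes on TMM scaling. For homozygous pAP146 seedlings against siblings the 60 genes stood at 0.37 on TPM and -0.39 on TMM scaling, and all genes at 0.70 on TPM scaling.

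Against Col-0 leaves, 21 of the 60 fell in homozygous seedlings and 1 rose on TMM scaling, against 28.2% and 33.8% of all genes, with a median of -0.21, so that 35% of the 60 fell. On TPM scaling the median was 0.54 and that of all genes 0.70 in the same samples. AT5G39850 was again the gene that rose (log2 0.83, adjusted p = 0.00758), and the 21 that fell were all among the 40 that fell against siblings, a comparison with the same homozygous samples. Within S19 the copy AT5G61170 fell (-0.48, adjusted p = 0.00912) while AT5G15520 had 0.36 (adjusted p = 0.0596), and within S25 AT2G21580 fell (-0.40, adjusted p = 0.0130) while AT4G34555 had 0.27 (adjusted p = 0.137). In shares of the family, AT5G61170 stood at 33.6 ± 1.68% (SD, n = 4) in homozygous seedlings, 43.2 ± 1.67% (SD, n = 4) in siblings and 41.8 ± 0.887% (SD, n = 4) in Col-0 t1 seedlings. AT1G34030 of S18 stood at 22.8 ± 1.68% (SD, n = 4) in homozygous seedlings, between 28.7 and 30.7% in siblings and at 28.8 ± 0.420% (SD, n = 4) in Col-0 t1 seedlings. These 2 shares were thus lower in homozygous seedlings than in sibling leaves and in Col-0 t1 seedlings, with no overlap.

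Homozygous seedlings were also set against Col-0 seedlings of the time-of-day experiment. This compares seedlings with seedlings, but across experiments and possibly across times of day. Of the 60, 45 fell in edgeR, against 27.8% of all genes, and 46 in DESeq2, against 28.8%. None rose in either tool, against 31.9% and 31.6% of all genes. The median was -0.37 on TMM scaling and -0.26 on TPM scaling, where that of all genes was 0.07, and the summed TPM was lower (ratio 0.850, exact permutation test, 2-sided, p = 0.00303, the smallest possible). AT3G09680 (S23) had the largest difference, with 0.188, 0.128, 0.609 and 0.713 TPM in homozygous seedlings, as low as in leaves, against 1.99 to 2.87 TPM in Col-0 seedlings (log2 -2.71, SE 0.45, adjusted p = 9.34e-06). Its homozygous values rest on 3, 2, 10 and 9 estimated counts, near the floor, against 32 to 57 in Col-0 seedlings, so the size of this difference is uncertain. Other genes with the lowest adjusted p were AT4G25740 (S10, -0.89), AT4G31700 (S6, -0.68), AT5G10360 (S6, -0.54), AT1G48830 (S7, -0.46), AT3G57490 (S2, -0.79), AT1G34030 (S18, -0.64) and AT5G61170 (S19, -0.59). AT3G04770 (Sa) fell by 0.85 on the log2 scale (adjusted p = 0.000205). RPS5A had the highest mean share of S5 in homozygous seedlings, 74.3 ± 2.33% (SD, n = 4), and the lowest in pAP141 t1.

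The other genes of the small subunit, a list of 28 of which 27 passed the filter, was counted in the same fits. In pAP142 t1 against Col-0 t1, 9 rose and 1 fell, the latter being the deleted AT5G28060, against 9.39% and 8.94% of all genes, and the median was 0.29. AT1G23410 (S27a) had the largest rise (log2 0.79, adjusted p = 0.000303), and the retained S24 gene AT3G04920 had 0.32. In Col-0 from evening to morning 12 of the 27 rose and none fell, against 14% and 16.6% of all genes. In homozygous seedlings 18 fell and 1 rose against siblings on TMM scaling, against 27.8% and 33.0% of all genes. Of the 7 genes listed for the TOR pathway, S6K1 (0.59, adjusted p = 0.000554) and S6K2 (0.76, adjusted p = 0.00303), which encode the kinases of S6, rose in pAP142 t1, and TOR itself had -0.07 (adjusted p = 0.862). In Col-0 from evening to morning S6K1 rose (1.73, adjusted p = 1.92e-10) and S6K2 fell (-0.46, adjusted p = 0.0402). In homozygous seedlings against siblings S6K1 fell (-0.69, adjusted p = 0.000946) and S6K2 rose (1.52, adjusted p = 5.62e-05). Root and meristem markers differed between the groups as well. The 11 root markers summed to 53.7 to 79.0 TPM in Col-0 seedlings, to 54.0 to 74.4 TPM in pAP141, to 41.6 to 59.6 TPM in pAP142, to 27.9 to 93.6 TPM in homozygous seedlings and to 9.41 to 13.4 TPM in leaves, where PLT1, PLT2, EXPA7 and RHD6 were at 0 in all 3 leaf groups. In the evening the root sums did not overlap, with 53.7 to 70.5 TPM in Col-0 and 43.3 to 47.8 TPM in pAP142. The single root markers differed in direction, however. CASP1 had 27.1, 28.1, 33.4 and 43.3 TPM in Col-0 t1 and 26.4, 12.6 and 13.1 TPM in pAP142 t1. WOX5 had 0.971, 2.12, 1.59 and 0.836 TPM in Col-0 t1 and 2.22, 3.28 and 3.21 TPM in pAP142 t1. The 7 meristem markers summed to 46.4 to 72.8 TPM in Col-0 t1, to 49.1 to 69.7 TPM in pAP142 t1, to 50.4 ± 9.61 TPM (SD, n = 4) in pAP141 t1, to 80.0 to 135 TPM in homozygous seedlings and to 16.2 to 35.9 TPM in sibling leaves. In the 2 pAP141 t2 samples they summed to 15.5 TPM (replicate 1, where STM had 0.217 TPM and KNAT1 1.02 TPM) and 47.0 TPM (replicate 2, where STM had 3.40 TPM and KNAT1 5.96 TPM). The 4 leaf markers did not overlap in the evening either, with 25755 to 27999 TPM in Col-0 and 21200 to 25300 TPM in pAP142. They summed to between 21186 and 32665 TPM in homozygous seedlings and to between 56426 and 64394 TPM in leaves. The part of these cell types in the results on the 60 genes was not tested.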

How the data were processed

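Stranded poly(A) RNA-seq was done by the authors on 34 samples. The authors quantified reads with Salmon 1.6.0 against the Araport11 primary transcriptome, 1 coding sequence for each of 27538 genes. The deposited tables give estimated counts, rounded here to whole numbers, and TPM, which the authors' tool scaled for length and library. Groups came from the labels. Estimated counts were tested with edgeR 4.0.16 (quasi-likelihood, robust, TMM, filter on low counts by group, Benjamini-Hochberg over all genes, adjusted p under 0.05) in 3 fits: 21356 genes in the time-of-day samples, 20833 in the pAP146 samples and 21879 in all 34 (seedlings against leaves, and homozygous against Col-0 seedlings). A value without a named tool is from edgeR. Summed TPM was compared by 2-sided exact permutation tests, and family shares are percentages of TPM over the listed copies. DESeq2 1.42.0, RLE scaling, no filter, effective-length offsets, a replicate block, other sets of samples and each sample left out were alternatives. The fit was tested on simulated data.

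The members and gene lists were chosen with earlier results of these data known. Genes named are, per comparison, the called members with the lowest adjusted p (at most 8 in the direction with more calls, at most 4 in the opposite one), copies with a sign opposite to a called copy, members with a mean share under 5%, the 5 highest members, and the 5 families whose largest copy moved most between Col-0 seedlings and leaves. Further members, such as RPS6, EMB3010, RPS5B and genes that show a shift of shares, were chosen after their values were seen. The result for 1 named gene is not reported here. Sequences and coordinates are from RefSeq for TAIR10.1, in which the coding lengths of all 60 members equalled those in the deposited tables.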

Additional observations from a re-analysis of the deposited data

Results flagged for a closer look

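Among 85 groups of 4 samples tested over 16 members and the summed TPM of the 60, 2 had a sample far from the others, and chance alone gives such a gap in about 1 in 20 groups. AT4G39200 (S25) stood at 1165 TPM in 1 sibling sample, while the other 3 lay between 946 and 956 TPM, a gap of 0.954 of the range. AT3G53870 (S3) stood at 374 TPM in 1 pAP141 t1 sample, while the other 3 lay between 336 and 342 TPM, a gap of 0.830 of the range.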

How the results depend on the processing

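Over 2762 settings of the 196 results on named members, 116 lost a call and 13 gained one. The sign changed in 73 settings of 41 results, none of them called. Samples with the same replicate number had a mean residual correlation of 0.0212 over 41 pairs in the time-of-day samples, with values from -0.305 to 0.328. Samples with different numbers had a mean of -0.0081 over 108 pairs. These means show no pairing by number, but with so few samples in a group they cannot exclude one. With a replicate block 13 members were called in pAP142 t1 against Col-0 t1, 14 in Col-0 t2 against t1 and 3 in pAP141 t2 against t1. With all 34 samples in 1 fit these counts were 13 for pAP142 t1 against Col-0 t1, 0 for pAP142 t2 against t1 and 3 for pAP141 t2 against t1. DESeq2 called 24 in pAP141 t1 against Col-0 t1 and 1 in the interaction of pAP142 with time. The cause was not tested.

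On TMM-normalized CPM in place of TPM, the log2 ratio of the sums was 0.269 for pAP141 t1 and 0.0953 for pAP141 t2 against Col-0, -0.0600 for pAP142 t2 against pAP141 t2, 0.292, 0.0292 and 0.119 for t2 against t1 in Col-0, pAP142 and pAP141, -0.407 and -0.221 for homozygous pAP146 against siblings and Col-0, and 0.122 for seedlings against leaves. The mean of log2(TPM + 1) gave 0.268 for pAP142 t1 against pAP141 t1. With 1 sample left out, the members called ran from 5 to 20 in pAP142 t1 and from 0 to 8 in pAP141 t1 against Col-0, from 3 to 7 and from 2 to 7 in pAP142 against pAP141 at t1 and t2, from 7 to 26, 1 to 4 and 3 to 15 in t2 against t1 of Col-0, pAP142 and pAP141, and from 11 to 29 in seedlings against leaves. The log2 ratio of sums ran from 0.205 to 0.312 in pAP142 t1, from -0.00970 to 0.0394 in pAP142 t2, and from 0.428 to 0.653 in homozygous pAP146 against Col-0 leaves. Where pAP141 t2 lost 1 of its 2 samples, the lone sample was assumed to vary like the other groups. With 1 sample fewer the pAP142 t1 test cannot pass 0.05.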
